A study of Mus musculus with 8 samples.

Results

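The naive pluripotency transcription factors described here are Klf2, Klf4, Klf5, Tfcp2l1, Esrrb, Nanog, Tbx3, Nr5a2, Nr0b1 and Zfp42. These 10 genes were taken by symbol from the 20278 genes listed in any sample, and all 10 had enough counts to be tested. RNA-seq was performed on N33, a single mouse embryonic stem cell (ESC) line labelled C57BL/6 and derived from C57BL/6J mice, in 4 culture conditions with 2 replicates each. Every condition contained leukemia inhibitory factor (LIF) at 1000 U/ml. The −F cells grew on gelatin in 20% fetal bovine serum. The F cells grew in the same serum medium on feeders, which are mouse embryonic fibroblasts whose division had been stopped with mitomycin C. The F2i cells had feeders, serum and 2i, a pair of inhibitors. The NB2i cells grew on poly-L-ornithine and laminin in N2B27, a defined medium without serum, with 2i and no feeders. The 2i inhibitors in NB2i were CHIR99021 at 3 µM, against the kinase Gsk3β, and PD0325901 at 1 µM, against the kinase Mek. The sample labels give these doses for N2B27 only, so the doses in F2i are not stated here. Between −F and F the stated difference was the feeders, and between F and F2i it was 2i. Between F2i and NB2i, feeders, serum, basal medium and plate coating differed together, and their parts cannot be told apart.

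Naive pluripotency is the state of the preimplantation epiblast, and mouse ESCs hold it through a network of transcription factors that bind and activate one another's genes. LIF acts on the network through Stat3, with Klf4 and Tfcp2l1 among its known targets. Gsk3β inhibition stabilises beta-catenin and relieves repression by Tcf7l1, of which Esrrb is a known target, while Mek inhibition blocks ERK, the kinase that drives cells out of the naive state. In serum, individual ESCs are known to fluctuate in Nanog, Tbx3, Klf4 and Zfp42, so that a bulk level averages over cells.

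All 8 samples had between 20129641 and 20664488 expected counts, and the summed FPKM (reads scaled by transcript length and sequencing depth) of 7 general ESC markers was between 3252 and 3565 in every sample. Dppa5a made up most of that sum, with means of 1846 FPKM in −F and 2262 in NB2i. The single markers were not constant. Of the 7, 5 were lower and 2 higher in NB2i than in −F at an adjusted p under 0.05 in the edgeR test described below. Of all genes, 35.4% were lower and 36.9% higher. Utf1 fell the most, from a mean of 478 FPKM in −F to 47.1 in NB2i. The labels' treatment protocol gives a removal of feeders by adherence, a step that the study's RNA-seq methods leave out, and fibroblast RNA was present in F and F2i. The summed FPKM of 14 fibroblast markers was 15.2 to 15.6 in −F, 221 to 232 in F, 583 to 597 in F2i and 3.54 to 4.32 in NB2i. In NB2i 13 of the 14 were under 1 FPKM and 3 were at 0, whereas 1 was under 1 FPKM in F and 1 in F2i. The summed FPKM of 8 markers of 2C-like cells, which resemble the 2-cell embryo, was 1.27 to 1.35 in −F, 25.6 to 26.3 in F, 58.8 to 59.3 in F2i and 0.020 to 0.080 in NB2i. Markers of primitive endoderm (9 genes) summed to 28.4 to 28.7, 46.5 to 48.7, 36.7 to 38.3 and 24.3 to 24.8 in the same order, and those of trophoblast (7 genes) to 23.1 to 23.6, 15.7 to 16.1, 8.58 to 8.86 and 26.8 to 28.2. In NB2i 7 of the 9 and 4 of the 7 were under 1 FPKM. Lama1 (mean 20.75 FPKM) and Krt7 (19.2) made up most of these sums there. From F2i to NB2i, Lama1 rose from 6.88 FPKM while Col4a1, also a primitive endoderm marker, fell from 25.3 to 0.66. The part of these cells in the results below was not tested, except where a value is given. In bulk RNA, fewer cells expressing a gene and less of its RNA per cell cannot be told apart.

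Summed over the 10 factors, FPKM was 587 ± 0.13 (SD, n = 2) in −F, 1131 ± 2.55 in F, 1687 ± 28.9 in F2i and 1302 ± 8.29 in NB2i. The median factor stood at 42.4 FPKM in −F, 62.4 in F, 116.6 in F2i and 129.7 in NB2i. Thus the sum was highest in F2i while the median was highest in NB2i. Nanog had the highest and Nr5a2 the lowest FPKM of the 10 in all 4 conditions. The ratio of the highest to the lowest condition mean ran from 1.69 for Esrrb to 15.1 for Tbx3. In the plot of FPKM by sample, 9 of the 10 were lowest in −F, and the 10 divided into 5 that peaked in F2i and 5 that peaked in NB2i.

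**Figure D1:**
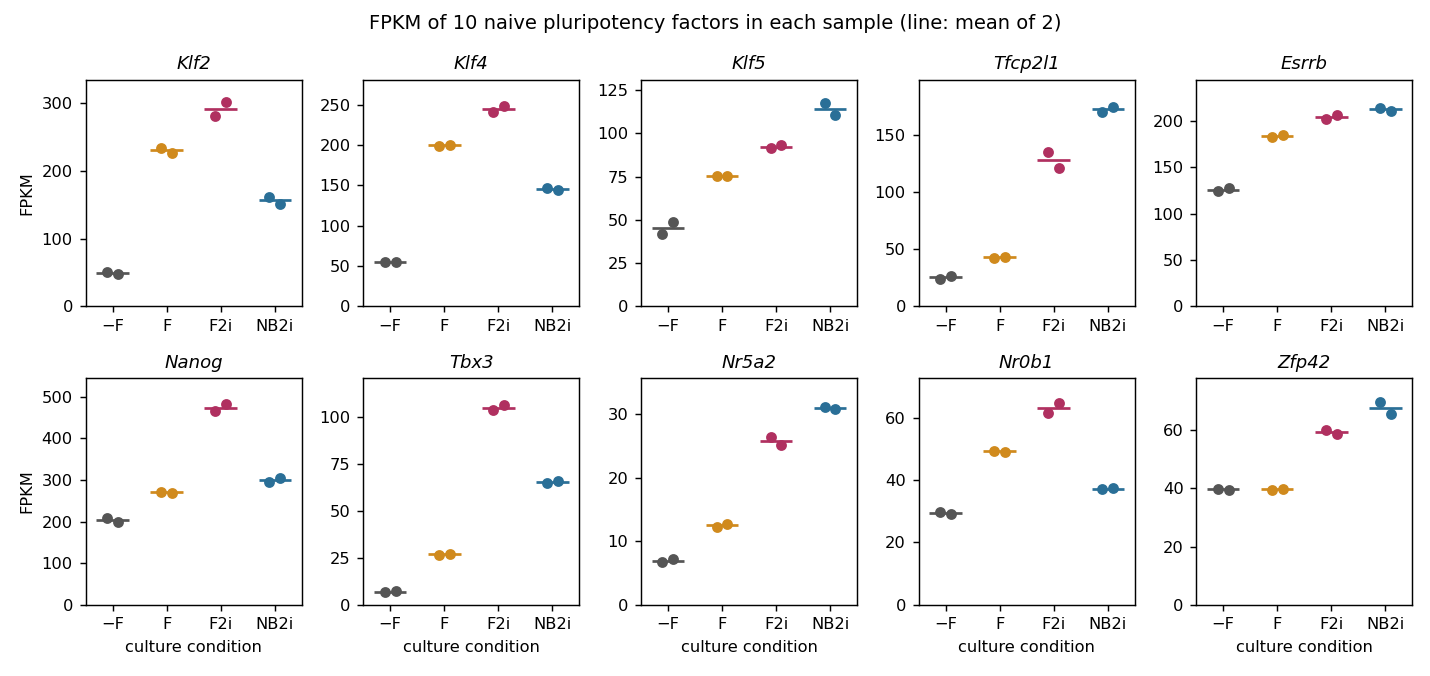
FPKM (vertical axes, from 0) of each of the 10 factors in the 4 culture conditions (horizontal axes). Each point is a sample and each line the mean of 2. Klf2, Klf4, Nanog, Tbx3 and Nr0b1 peak in F2i, the other 5 in NB2i, and Zfp42 has the same level in −F and F.

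The Krüppel-like factors Klf2, Klf4 and Klf5 are zinc finger proteins that bind GC-rich DNA and can replace each other in part in ESCs. Klf2 (Gene ID 16598, chr8:72319033-72321656, plus strand, mm10) had 50.3 and 47.7 FPKM in the −F replicates and 234 and 227 in F. It had 281 and 302 FPKM in F2i and 161 and 152 in NB2i. No 2 conditions overlapped, and the order from low to high was −F, NB2i, F, F2i. Klf4 (Gene ID 16600, chr4:55527143-55532466, minus strand) had 54.2 and 54.7 FPKM in −F and 199 and 200.2 in F. Its F2i samples had 241 and 248 FPKM and its NB2i samples 146 and 144. Klf4 followed the same order as Klf2, again without overlap. Klf5 (Gene ID 12224, chr14:99298691-99315036, plus strand) had 41.7 and 48.6 FPKM in −F and 75.5 and 75.6 in F, then 91.3 and 93.5 in F2i and 118 and 111 in NB2i. Klf5 therefore rose through the 4 conditions and was highest where Klf2 and Klf4 had fallen back. Its −F replicates lay 16.5% apart, the widest gap of any factor in any condition. Klf5 made up 30.3% of the summed FPKM of the 3 KLF genes in −F, 14.9% in F, 14.7% in F2i and 27.4% in NB2i.

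Sequence upstream of these genes is shown for Klf2 and Klf4, the pair of factors with the most similar profiles, and for Tfcp2l1, the factor whose profile was farthest from both. Each window runs from 250 to 51 bases before the start of transcription (200 bases, RefSeq, GRCm38.p6), 5′ to 3′ on the gene's strand. The windows are chr8:72318812-72319011 (plus strand) for Klf2, chr4:55532526-55532725 (minus strand) for Klf4 and chr1:118627695-118627894 (plus strand) for Tfcp2l1. Capitals mark matches on either strand to CCNCNCCC, a GC-rich motif of the kind that KLF zinc fingers bind, with overlapping matches counted separately.
Klf2: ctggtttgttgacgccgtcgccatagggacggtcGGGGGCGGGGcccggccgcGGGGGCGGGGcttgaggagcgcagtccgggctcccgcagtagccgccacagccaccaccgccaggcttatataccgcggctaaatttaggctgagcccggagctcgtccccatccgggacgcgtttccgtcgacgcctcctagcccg
Klf4: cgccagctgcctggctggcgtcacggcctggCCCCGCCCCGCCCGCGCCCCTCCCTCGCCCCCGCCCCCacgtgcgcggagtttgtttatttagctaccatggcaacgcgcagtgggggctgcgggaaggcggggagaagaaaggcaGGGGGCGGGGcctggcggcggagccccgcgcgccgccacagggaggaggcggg
Tfcp2l1: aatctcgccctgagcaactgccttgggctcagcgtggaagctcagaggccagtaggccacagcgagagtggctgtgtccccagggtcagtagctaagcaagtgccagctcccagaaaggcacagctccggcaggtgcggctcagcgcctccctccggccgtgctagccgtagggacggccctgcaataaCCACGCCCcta
The Klf2 window held 4 matches, the Klf4 window 9 and the Tfcp2l1 window 1. The count did not follow the order of condition means across the factors. The window of Nr0b1, which had the order of Klf2 and Klf4, held 0 matches. The windows of Esrrb, which had the order of Tfcp2l1, held 6 and 1. A match was present in 36.4% of 32851 windows of the same length, and 4 or more matches in 6.22%. Of the 11 windows found for 8 of the factors, 9 held a match. The windows of Nanog overlapped, so matches in a shared run of G were counted in each of them. TTCNNNGAA, the motif of Stat3, was in 1 of the 11, at Esrrb, against 5.76% of all windows. ATTTGCAT, the octamer bound by Oct4, was in 1, at Zfp42, against 1.32%, and TCAAGGTCA, the motif shared by Esrrb and Nr5a2, in 0, against 0.323%. Matches of this kind are a description of the letters and not of binding.

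Tfcp2l1, a CP2-family factor downstream of Stat3, and Esrrb, an orphan nuclear receptor, are further activators of the network. Tfcp2l1 (Gene ID 81879, chr1:118627945-118685168, plus strand) had 24.2 and 26.7 FPKM in −F and 42.6 and 43.3 in F. It had 135 and 121 FPKM in F2i and 170.4 and 175 in NB2i. Its samples rose through the 4 conditions without overlap, by 6.79-fold between the outer means. Esrrb (Gene ID 26380, chr12:86361117-86521628, plus strand) had 125 and 127 FPKM in −F and 182 and 185 in F, then 202 and 206 in F2i and 214 and 211 in NB2i. Esrrb had the narrowest range of the 10, and its F2i and NB2i levels were neighbours that did not pass the test, although the samples did not overlap.

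Nanog, a homeodomain protein, and Tbx3, a T-box protein, sustain self-renewal when overexpressed. Nanog (Gene ID 71950, chr6:122707489-122714633, plus strand) had 208 and 199 FPKM in −F, 271 and 269 in F, 465 and 482 in F2i and 295 and 304 in NB2i. The F2i samples stood apart from the other 6, which covered 199 to 304 FPKM. Tbx3 (Gene ID 21386, chr5:119670669-119684724, plus strand) had 6.70 and 7.22 FPKM in −F and 26.6 and 27.3 in F. It reached 104 and 106 FPKM in F2i and had 65.0 and 65.9 in NB2i. Within a sample, Tbx3 moved from the 62.4th to 63.6th percentile of all 20278 genes in −F to the 96.5th in F2i, while Nanog stayed between the 98.4th and the 99.3rd.

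Nr5a2, a nuclear receptor that can activate Oct4, and Nr0b1, its orphan relative without the usual DNA-binding domain and a known repressor partner, are listed together. Nr5a2 (Gene ID 26424, chr1:136842571-136960448, minus strand) had 6.68 and 7.21 FPKM in −F, 12.3 and 12.7 in F, 26.4 and 25.2 in F2i and 31.2 and 30.8 in NB2i. Nr0b1 (Gene ID 11614, chrX:86191764-86195947, plus strand) had 29.6 and 29.0 FPKM in −F, 49.4 and 48.9 in F, 61.4 and 64.8 in F2i and 37.1 and 37.3 in NB2i. Both were lowest in −F, but Nr5a2 was highest in NB2i, where Nr0b1 was below its F level. Zfp42, also known as Rex1, is a zinc finger protein related to Yy1 and a marker of naive cells. Zfp42 (Gene ID 22702, chr8:43295063-43306980, minus strand) had 39.9 and 39.5 FPKM in −F, 39.5 and 39.9 in F, 60.0 and 58.8 in F2i and 69.9 and 65.5 in NB2i. Its −F and F samples overlapped, and both lay below every sample with 2i.

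To ask what feeders were associated with, F was compared with −F. All factors but Zfp42 rose in F, and Klf2, Tbx3 and Klf4 rose the most. The test was edgeR's quasi-likelihood test of expected counts over 15287 genes, and a gene was called at a Benjamini-Hochberg adjusted p under 0.05. Of the 10 factors, 9 were called higher and Zfp42 was not called, where 21.7% of all genes tested were called higher. Klf2, Klf4 and Tbx3, 3 of the 10, also passed a fold change of 2, which 5.59% of all genes did in that direction. Klf2 was 4.78-fold higher (log2 2.26 ± 0.051 SE, adjusted p = 3.2e-19), Tbx3 3.92-fold (1.97 ± 0.053, 1.1e-17) and Klf4 3.73-fold (1.90 ± 0.042, 2.5e-19). The other 6 that rose did so by 0.45 to 0.87 on the log2 scale, Nanog at the low end with 0.45 ± 0.041 and Nr5a2 at the high end with 0.87 ± 0.062. For Zfp42 the difference was 0.02 ± 0.050 (95% interval −0.08 to 0.12, adjusted p = 0.77). The median difference was 0.77 over the 10 factors and 2.66e-05 over all genes. The smallest p that exact permutation allows for 2 samples and 2 samples is 0.3333, so all adjusted p-values rest on the model across genes. The fibroblast and 2C-like markers moved with this comparison, all 8 of the 2C-like and 13 of the 14 fibroblast markers being called higher in F. All 9 primitive endoderm markers were also called higher, 6 of them by at least 2-fold (median log2 1.33). The part of these markers in the rise of the factors was not tested.

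Addition of 2i to feeders and serum was addressed by F2i against F. All 10 factors rose, Tbx3 by 4.01-fold (log2 2.00 ± 0.044, adjusted p = 2.4e-19), Tfcp2l1 by 3.07-fold (1.62 ± 0.052, 1.5e-16) and Nr5a2 by 2.12-fold (1.08 ± 0.052, 1.3e-13). These were the 3 factors at or above a 2-fold change, a size that 6.44% of all genes passed upward, and 27.3% of all genes were called higher at any size. Nanog rose by 0.85 ± 0.040 and Zfp42 by 0.62 ± 0.048 on the log2 scale. The 3 KLF genes rose by 0.33 to 0.37 and Nr0b1 by 0.40, and the smallest rise was that of Esrrb with 0.19 ± 0.040 (adjusted p = 0.00035). The median was 0.51 over the 10 factors and −0.0028 over all genes. Of the marker lists, 11 of 14 fibroblast markers and all 8 of the 2C-like markers were called higher. Of 9 primitive endoderm markers, 6 were called lower and 1 higher, where 27.4% of all genes were called lower. The part of these markers in the rises of the factors was not tested.

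**Figure D2:**
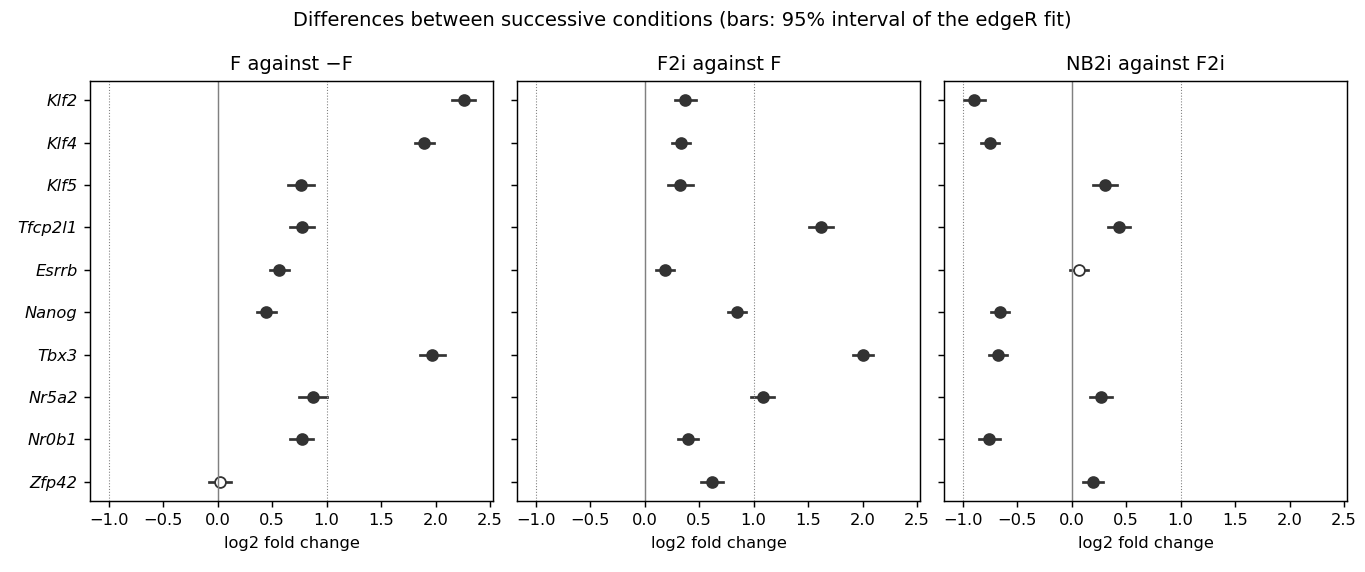
Log2 fold change of each factor (horizontal axes) for F against −F, F2i against F and NB2i against F2i, with 95% intervals as bars, filled points for differences called at an adjusted p under 0.05 and dotted lines at a 2-fold change. Klf2 and Klf4 lie near 2 on the left and under 0.5 in the middle, and Tfcp2l1 lies at 0.78 and then 1.62.

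Whether a factor moved more with feeders or with 2i was tested as the difference between both steps in the same fit. This contrast was added after the data had been seen, and the 2 steps share the F samples. The feeder step was the larger for Klf2, by 1.88 ± 0.080 on the log2 scale (adjusted p = 5.6e-14), and for Klf4, by 1.57 ± 0.068 (7.7e-14). It was also larger for Klf5 (0.44 ± 0.096), Esrrb (0.38 ± 0.069) and Nr0b1 (0.37 ± 0.082). The 2i step was the larger for Tfcp2l1, Zfp42 and Nanog, with contrasts of −0.84 ± 0.091, −0.60 ± 0.085 and −0.40 ± 0.071. Over all genes, 21.2% were called with the larger feeder step, against 5 of the 10 factors, and 15.0% with the larger 2i step, against 3. For Tbx3 the steps were 1.97 and 2.00, with a contrast of −0.03 ± 0.084 (adjusted p = 0.79), and for Nr5a2 they were 0.87 and 1.08, with −0.21 ± 0.099 (0.10). Without replicate 1 of −F the Nr5a2 contrast was −0.27 and was called (adjusted p = 0.045).

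In NB2i against F2i the 10 factors parted. Klf2, Klf4, Nanog, Tbx3 and Nr0b1 were lower in NB2i, and Klf5, Tfcp2l1, Nr5a2 and Zfp42 were higher. These were 5 of 10 called lower, beside 30.8% of all genes, and 4 called higher, beside 33.3%. The 4 called higher lay near the share of all genes, and no factor reached a 2-fold change. Klf2 fell by 0.89 ± 0.046 on the log2 scale (adjusted p = 3.2e-13). Nr0b1 and Klf4 fell by 0.75 and 0.74, and Tbx3 and Nanog by 0.68 and 0.66. The rises were smaller, from 0.19 ± 0.045 for Zfp42 (adjusted p = 0.00083) to 0.43 ± 0.050 for Tfcp2l1 (1.5e-07). Esrrb differed by 0.07 ± 0.040 (95% interval −0.02 to 0.15, adjusted p = 0.16). All 14 fibroblast markers and all 8 of the 2C-like markers were called lower in NB2i.

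Both feeder-free conditions were compared as NB2i against −F. Here all 10 factors were higher in NB2i, against 36.9% of all genes, and 6 of them by at least 2-fold, against 11.1%. Tbx3 was 9.85-fold higher (log2 3.30 ± 0.051, adjusted p = 2.5e-22), Tfcp2l1 7.11-fold (2.83 ± 0.055), Nr5a2 4.67-fold (2.22 ± 0.056), Klf2 3.34-fold (1.74 ± 0.051), Klf4 2.80-fold (1.48 ± 0.042) and Klf5 2.65-fold (1.40 ± 0.056). The smallest rise was 0.41 ± 0.051 for Nr0b1 (adjusted p = 2.3e-07). The fibroblast sum was 3.54 to 4.32 FPKM in NB2i and 15.2 to 15.6 in −F.

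Against F, NB2i had 7 factors higher and 3 lower, beside 36.3% and 37.1% of all genes, and the 3 lower lay near that share. Klf2, Klf4 and Nr0b1 were lower, by 1.43-fold, 1.33-fold and 1.28-fold. Tfcp2l1 (4.15-fold), Nr5a2 (2.55-fold) and Tbx3 (2.51-fold) were higher by at least 2-fold, a size that 10.04% of all genes passed upward. Nanog showed the smallest of the 7 rises, 0.19 ± 0.041 on the log2 scale (adjusted p = 3e-04). The full addition of feeders and 2i in serum, F2i against −F, had all 10 factors higher, beside 34.5% of all genes. In that comparison 8 factors rose by at least 2-fold, beside 11.7%, with Tbx3 at 15.7-fold and Klf2 at 6.20-fold, and Esrrb (1.69-fold) and Zfp42 (1.56-fold) were the remaining 2. Comparisons that have a condition in common share its samples and are not independent.

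The other genes of the pluripotency network did not all follow these 10. Among 15 core factors, 7 were called higher and 4 lower in F against −F (median log2 0.03), 5 and 7 in F2i against F (0.05), and 4 and 9 in NB2i against F2i (−0.21). Over all genes, 21.7% were higher and 18.5% lower in the first of these comparisons, 27.3% and 27.4% in the second, and 33.3% and 30.8% in the last. The 5 of 15 higher in F2i against F and the 4 of 15 higher in NB2i against F2i lay near those shares. Without F replicate 2, or without F2i replicate 1, 3 rather than 5 were called higher in F2i against F. Pou5f1, which encodes Oct4 and had the highest level of the core factors, had 606 and 569 FPKM in −F, 583 and 595 in F, 602 and 620.2 in F2i and 765 and 736 in NB2i. Its NB2i samples stood above the other 6 (log2 0.30 against F2i, adjusted p = 3e-06). Prdm14, a repressor of DNA methylation genes and of FGF signalling, had 4.47 and 4.63 FPKM in −F, 6.37 and 6.51 in F, 15.4 and 15.1 in F2i and 20.5 and 20.1 in NB2i. Foxd3, a forkhead factor, had 2.74 and 2.63 FPKM in −F, 6.47 and 6.26 in F, 12.5 and 13.2 in F2i and 5.86 and 6.60 in NB2i. Prdm14 thus rose through the conditions in the order of Tfcp2l1, while Foxd3 peaked in F2i. Utf1, a chromatin factor of ESCs, moved the other way, from 497 and 459 FPKM in −F to 374 and 386 in F, 79.4 and 83.7 in F2i and 47.5 and 46.6 in NB2i. It fell by 2.18 on the log2 scale in F2i against F (adjusted p = 3.8e-19).

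Of 15 further genes linked to the naive state, 8 were higher and 3 lower in F against −F (median log2 0.28), 10 and 4 in F2i against F (0.54), and 7 and 4 in NB2i against F2i (0.08). The shares of all genes higher and lower were 21.7% and 18.5%, 27.3% and 27.4%, and 33.3% and 30.8%. The 3 of 15 lower in F, the 4 of 15 lower in F2i and the 4 of 15 lower in NB2i therefore lay near the share of all genes. The 3 lower in F became 1 without F replicate 2. Dppa5a, an RNA-binding protein with the highest level of the list, was called in F2i against F only among those 3 comparisons, at 0.29 on the log2 scale (adjusted p = 0.00015). Jam2, a junction adhesion molecule, had 6.58 and 6.85 FPKM in −F, 12.6 and 12.8 in F, 56.4 and 57.0 in F2i and 64.2 and 67.9 in NB2i. Fbxo15, an F-box protein, had 55.9 and 57.5 FPKM in −F, 77.3 and 75.9 in F, 193 and 192 in F2i and 149 and 152 in NB2i. Jam2 rose by 2.20 on the log2 scale in F2i against F (adjusted p = 1.5e-19), Fbxo15 by 1.37 (5.3e-17), Pecam1, an adhesion molecule, by 1.13 (8e-15), and Spp1, the secreted protein osteopontin, by 1.06 (8.2e-15).

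**Figure D3:**
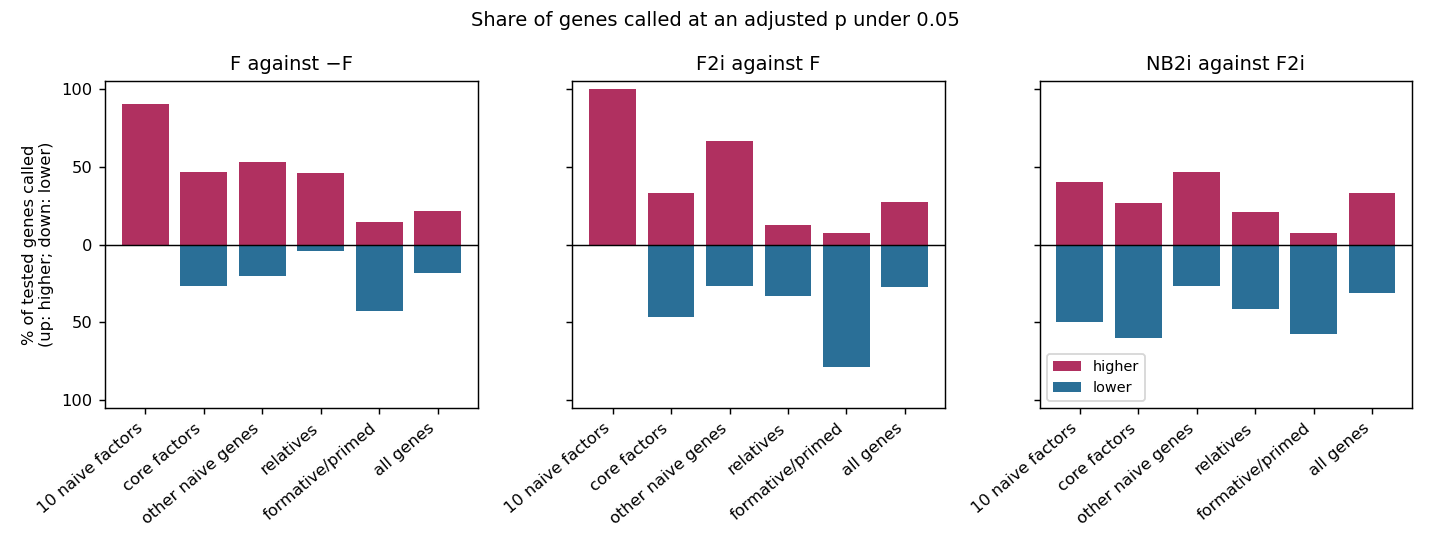
Percentage of tested genes called higher (upward bars) or lower (downward bars) at an adjusted p under 0.05 in each of 3 comparisons, for the 10 factors, 15 core factors, 15 other naive genes, 24 tested relatives, 14 formative or primed genes and all 15287 genes. The 10 factors show 9 and 10 of 10 higher in the first 2 comparisons and are split in the third.

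The gene families of the factors were covered by 27 relatives, of which 24 were tested. In F against −F 11 were higher and 1 lower (median log2 0.24), and in F2i against F 3 were higher and 8 lower (−0.13). In NB2i against F2i 5 were higher and 10 lower (−0.17), but 6 were lower without F2i replicate 2 and 5 without NB2i replicate 2. The shares of all genes higher and lower in these comparisons were 21.7% and 18.5%, 27.3% and 27.4%, and 33.3% and 30.8%, and the 8 of 24 lower in F2i against F lay near them. Yy1, the zinc finger factor to which Zfp42 is related and the relative with the highest level, had 52.8 and 51.5 FPKM in −F, 57.0 and 61.0 in F, 50.2 and 50.3 in F2i and 40.2 and 41.3 in NB2i. Klf6, an early response KLF that is also expressed in fibroblasts, had 16.2 and 15.4 FPKM in −F, 44.5 and 45.3 in F, 24.5 and 23.7 in F2i and 12.2 and 11.8 in NB2i. It rose by 1.53 in F against −F (adjusted p = 7.1e-17), as Klf2 and Klf4 did, but fell with 2i, where those 2 rose. Klf8 had 3.85 and 3.33 FPKM in −F, 4.90 and 5.23 in F, 13.0 and 13.2 in F2i and 16.7 and 15.9 in NB2i. Klf15, a KLF of metabolic tissues, was between 1.29 and 2.76 FPKM in the first 3 conditions and at 13.0 and 13.4 in NB2i (log2 2.29 against F2i, adjusted p = 6.1e-15). Tfcp2, a CP2-family relative of Tfcp2l1, had condition means of 4.21 FPKM in −F, 4.71 in F, 4.92 in F2i and 7.07 in NB2i. Its order was that of Tfcp2l1, with a 1.68-fold span. Ubp1, also a CP2-family relative, did not share that order. Its means were 38.6 FPKM in −F, 39.3 in F, 37.45 in F2i and 34.6 in NB2i, where Tfcp2l1 was highest. Esrra, a relative of Esrrb, stayed between 8.70 and 9.32 FPKM as condition means.

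The signalling branches that 2i and LIF act on gave separate readings. Of 12 genes of ERK feedback and early response, 11 were lower in F2i against F and the other was not called (median log2 −1.18), and all 12 were lower in NB2i against F2i (−1.26), beside 27.4% and 30.8% of all genes lower. Spry4, a feedback inhibitor of the pathway, had 20.5 and 21.2 FPKM in −F, 20.3 and 19.8 in F, 0.54 and 0.74 in F2i and 0.23 and 0.30 in NB2i. Etv4, an ETS factor downstream of ERK, had 52.8 and 52.2 FPKM in −F, 53.5 and 51.3 in F, 5.40 and 5.84 in F2i and 1.63 and 1.55 in NB2i. Neither passed the test between −F and F (log2 −0.03, adjusted p = 0.66, for Spry4 and 0.02, adjusted p = 0.78, for Etv4), and both fell with 2i. In F against −F 6 of the 12 were higher and 1 lower (median 0.13), beside 21.7% and 18.5% of all genes. The 2 largest rises were those of early response factors. Fos had 2.48 and 2.90 FPKM in −F, 147 and 144 in F, 77.2 and 81.0 in F2i and 1.72 and 1.53 in NB2i. Egr1 had 8.58 and 8.36 FPKM in −F, 90.4 and 94.1 in F, 4.0 and 3.54 in F2i and 1.58 and 1.62 in NB2i. Fos was therefore high in both feeder conditions and Egr1 in F. Whether Klf2 or Klf4 moved with these genes was not tested.

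Of 12 genes of the beta-catenin branch, 5 were higher and 2 lower in F against −F (median 0.65), 7 and 2 in F2i against F (0.70) and 6 and 6 in NB2i against F2i (−0.06). Over all genes 21.7% were higher and 18.5% lower in the first, 27.3% and 27.4% in the second, and 33.3% and 30.8% in the last, and the 2 of 12 lower in F lay near that share. The 2 lower in F became 1 without −F replicate 2 and 1 without F replicate 2. Ctnnb1, which encodes beta-catenin itself, was not called in the first 2 comparisons and lay between 200.4 and 218 FPKM in all samples. Axin2, a direct target, had 2.32 and 2.46 FPKM in −F, 3.98 and 4.08 in F, 12.4 and 13.2 in F2i and 16.2 and 16.0 in NB2i. The order of Axin2 was that of Tfcp2l1, Klf5 and Nr5a2, but the list was split. Lef1, a transcription factor that binds beta-catenin, had 3.53 and 3.38 FPKM in −F, 5.85 and 5.66 in F, 3.09 and 3.35 in F2i and 0.29 and 0.19 in NB2i, and it fell in NB2i against F2i by 3.74 on the log2 scale (adjusted p = 2.5e-14). Of 10 genes of the LIF and Stat3 branch, 6 were higher and 4 not called in F against −F (median 0.17). In F2i against F 3 were higher and 5 lower (−0.21), and in NB2i against F2i 6 were higher and 4 lower (0.35). Over all genes, 21.7% were higher in the first of these comparisons, 27.3% higher and 27.4% lower in the second, and 33.3% higher and 30.8% lower in the last. The 3 of 10 higher in F2i against F lay near that share. Socs3, the feedback inhibitor of Stat3, had 56.6 and 54.3 FPKM in −F, 53.0 and 55.6 in F, 27.8 and 28.7 in F2i and 48.8 and 46.7 in NB2i. It was lowest in F2i, the condition in which Klf2, Klf4, Nanog, Tbx3 and Nr0b1 were highest. Stat3 itself had 19.0 and 18.8 FPKM in −F, 27.5 and 26.3 in F, 28.3 and 28.5 in F2i and 36.1 and 35.4 in NB2i.

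**Figure D4:**
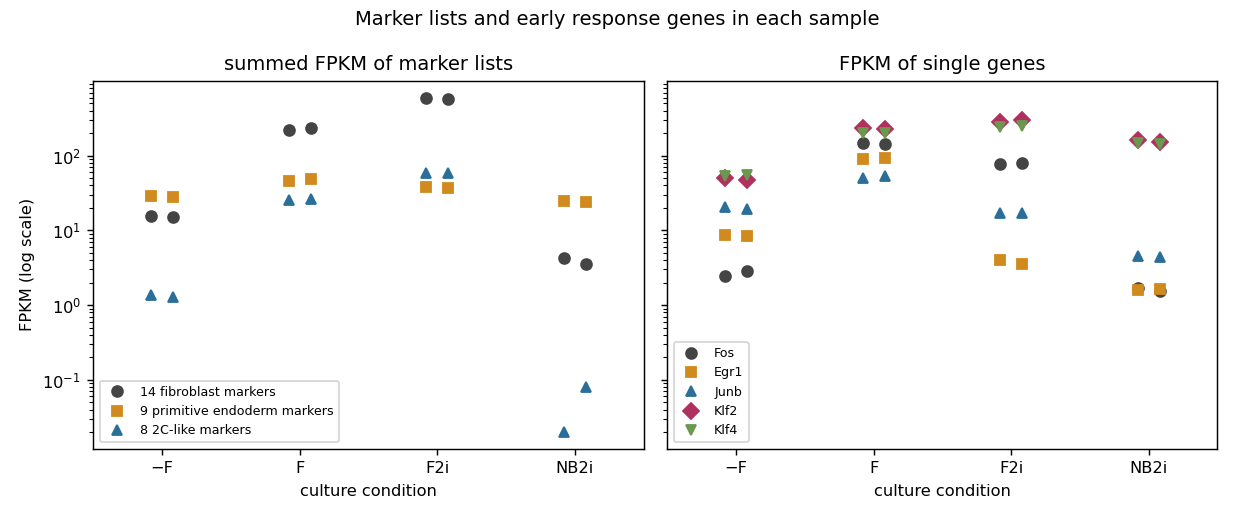
FPKM on log axes in each sample of the 4 conditions. The left panel shows the summed FPKM of marker lists, with fibroblast and 2C-like sums highest in F2i and lowest in NB2i, and the right panel shows Fos, Egr1, Junb, Klf2 and Klf4, of which Klf2 and Klf4 stay above 140 FPKM in NB2i.

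Genes of the formative and primed epiblast, the states that follow the naive one, were mostly lower in F2i than in F. Of 14, 2 were higher and 6 lower in F against −F (median log2 −0.21), 1 and 11 in F2i against F (−1.53) and 1 and 8 in NB2i against F2i (−0.59). Of all genes, 18.5%, 27.4% and 30.8% were lower in the 3 comparisons, and 21.7%, 27.3% and 33.3% were higher. Lin28a, an RNA-binding protein with the highest level of this list, had 135 and 140.1 FPKM in −F, 119 and 122 in F, 56.3 and 56.4 in F2i and 46.7 and 47.8 in NB2i. Dnmt3b, a de novo DNA methyltransferase, had 135 and 140.4 FPKM in −F, 62.2 and 62.4 in F, 16.8 and 17.2 in F2i and 16.5 and 16.6 in NB2i. Otx2, a homeodomain factor that opposes the naive network, had 13.3 and 12.4 FPKM in −F, 5.60 and 5.86 in F, 3.41 and 3.98 in F2i and 17.0 and 17.5 in NB2i. Otx2 was the gene of the list that rose in NB2i against F2i, by 2.22 on the log2 scale (adjusted p = 1.4e-15), and it was higher there than in any −F sample.

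Profiles were compared as condition means of log2(FPKM + 1), centred on their own mean, and likeness was the root mean square difference over the 4 conditions. Among the factors, Klf2 and Klf4 were the nearest pair, at 0.155, and both were farthest from Tfcp2l1, at 0.904 and 0.864. Nanog was nearest to Nr0b1 (0.205), Klf5 to Esrrb (0.207) and Tfcp2l1 to Nr5a2 (0.325), and Tbx3 had no factor closer than 0.572. Among all genes, the 8 factors with at least a 2-fold span were each matched to their 3 nearest. These matches depended on the pseudocount. Of the 24 listed, 16 were no longer among the 3 nearest when 0.1 was added instead of 1, including all those of Klf2 and Tfcp2l1. The 8 that stayed were Snord52 for Klf4, Vegfa for Klf5, Stk35 and Kdm3a for Nanog, Lrrc15 for Tbx3, Cpt1a and Cdkn1a for Nr5a2 and Snhg3 for Nr0b1. For Klf2 the nearest was Emp1 (0.079), followed by Ifi27 and Atf3. Emp1, an epithelial membrane protein, had mean FPKM of 2.47 in −F, 17.6 in F, 19.9 in F2i and 10.4 in NB2i. For Klf4 they were Snord52 (0.131), Ifi27 and Emp1. Stk35 (0.035), Kdm3a (0.036) and Ak1 were nearest to Nanog, and Snhg3 (0.026), Col5a3 and Zfp9 to Nr0b1. Kdm3a, a histone H3 lysine demethylase, had mean FPKM of 24.2 in −F, 33.5 in F, 56.8 in F2i and 37.9 in NB2i. Cpt1a (0.054), Cdkn1a and Gpat2 were nearest to Nr5a2, Abhd2 (0.045), Vegfa and Meis2 to Klf5, and Fkbp6 (0.099), Mdfic and 2410137M14Rik to Tfcp2l1. Tbx3 was the least matched, with Spic at 0.276, Lrrc15 at 0.278 and Aqp3 at 0.307.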

How the data were processed

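Expression was measured by poly-A RNA-seq in 8 samples, grouped by their labels. On a BGISEQ-500, the authors obtained single reads 50 bases long, which Bowtie2 mapped to mm10 and RSEM assigned to genes. Each deposited file lists an expected count, the RSEM estimate of reads per gene, and an FPKM value, which divides it by transcript length and depth. Genes that a file does not list were taken as 0, since the lowest FPKM listed was 0.01. Whether counting used strand is not given in the sources used here.

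Of the expected counts, 29.8% were not whole, and they were rounded. The 15287 of 20278 genes that reached 10 counts in 2 or more samples were fitted in edgeR 4.0.16 (R 4.3.3) by glmQLFit and glmQLFTest with TMM factors (0.977 to 1.03) and all 4 conditions in a single model, which leaves 4 residual degrees of freedom. The Benjamini-Hochberg adjustment was made over all genes, in each of 6 pairwise comparisons and in the contrast of steps. The biological coefficient of variation was 3.25%, so small differences give small p-values. The series' design text calls the replicates biological duplicates, but counts cannot tell separate cultures from separate libraries, and p-values measure only the spread between these samples. Levels, medians and profile differences are descriptions without a test. Alternatives were DESeq2 1.42.0, its size factors in edgeR, other filters, only the groups compared, a replicate block, leaving out each sample, and limma 3.58.1 for genes of at least 0.5 FPKM, on the log2 scale after adding 1 or 0.1.

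All 10 factors are named. From each other list, the gene with the highest mean and up to 4 with the largest changes among those called could be named, and up to 3 genes with the profile most like each factor. Tfcp2, Ubp1 and Esrra lie outside this rule and were chosen after their values were seen. The factors and lists were chosen with earlier results of these data known. Gene positions, counted from 1, were read from GENCODE for mm10. The scripts were tested on simulated data.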

Additional observations from a re-analysis of the deposited data

How the results depend on the processing

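With 2 samples per condition, differences near the spread between replicates rest on the model. The counts of factors called higher or lower stayed within 1.5 times under every alternative run, and of the single fold changes of factors in the 6 pairwise comparisons 2 changed sign, both that of Zfp42 in F against −F, at −0.0011 (adjusted p = 0.99) under limma with either pseudocount. The Tbx3 contrast of steps ranged from −0.0906 to 0.0237 as each replicate was left out and was above 0 without −F replicate 2 (0.0237) and without F replicate 1 (0.0124). Over all genes, those called at 2-fold or more numbered 1107 in F against −F, 2055 in F2i against F, 2956 in NB2i against F2i, 4152 in NB2i against −F, 4218 in NB2i against F and 3287 in F2i against −F. With at least 10 counts in every sample they numbered 393, 1110, 1513, 2597, 2430 and 1853, and with limma on log2(FPKM + 1) 309, 731, 1094, 1983, 1907 and 1452. The first of these alternatives drops genes silent in a condition, and the second understates changes of low genes. The 10 relatives lower in NB2i against F2i became 6 under DESeq2 and under limma with either pseudocount, and the 2 beta-catenin genes lower in F against −F became 1 under DESeq2 and under limma with 0.1. Profile differences rose with a pseudocount of 0.1, to 0.202 for Klf2 and Emp1, 0.332 for Tfcp2l1 and Fkbp6 and 0.946 for Tbx3 and Spic, and 16 of the 24 genes named as nearest were then not among the 3 nearest. Replicate numbers are not stated to pair the samples. The correlation of replicate deviations ran from −0.035 to 0.056 over 6 pairs of conditions, which cannot show whether samples were handled in pairs. With a replicate block, 5946 genes were called in F against −F instead of 6153, and 9 factors as before.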
